A study of Mus musculus with 16 samples.

Results

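The lysosome, cathepsin and V-ATPase genes described here are 38 genes, chosen by name for their place in the lysosome and matched to the Ensembl identifiers of the count tables, which list 49315 genes. All 38 were found, and each had counts in all 24 libraries, with a lowest value of 15 counts (Gla). By role they are 9 lysosomal proteases (Ctsa, Ctsb, Ctsc, Ctsd, Ctsh, Ctsl, Ctss, Ctsz and Lgmn), 11 glycosidases, lipid enzymes and cofactors (Hexa, Gla, Gaa, Gusb, Glb1, Psap, Lipa, Asah1, Npc1, Npc2 and Grn), 7 membrane and trafficking proteins (Lamp1, Lamp2, Cd63, Cd68, Slc11a1, Mcoln1 and Rab7), 9 genes of the V-ATPase (Atp6v0b, Atp6v0c, Atp6v0d1, Atp6v0e, Atp6v1a, Atp6v1b2, Atp6v1e1, Atp6v1g1 and Atp6ap1) and 2 transcription factors (Tfeb and Tfe3). RNA was sequenced from neutrophils of WT mice and of αD KO mice, which lack the integrin chain αD encoded by Itgad. Cells were sorted from blood or lung by Ly6G, CD11b and CD45.2, either from untreated (naive) mice or 12 hours post CLP (cecal ligation and puncture), an operation that leaks gut bacteria into the abdomen and causes sepsis. CLP was done in male mice of 8 to 12 weeks. The αD KO mice came from a commercial breeder, and neither the labels nor the methods limit the knockout to neutrophils. The 8 groups (genotype, tissue and time) have 3 count files each, listed under 2 samples, and each file is called a library here (1a and 1b for sample 1, and 2 for sample 2). Total counts per library were 5753476 to 29984954. The study describes the libraries of a group as triplicates. It is not given if the 2 files of sample 1 stem from different animals, so the p-values measure the spread between libraries, which may be technical in part.

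Lysosomes are acidic organelles in which proteases, glycosidases and lipid enzymes break down material that the cell has taken up or recycles. The V-ATPase pumps protons into the organelle and so makes the acid in which these enzymes work, and LAMP proteins line its membrane. In neutrophils the system overlaps with granule biology: Cd63 marks the membrane of azurophil granules, Ctsc activates the granule serine proteases, and Slc11a1 (NRAMP1) carries metal ions away from ingested bacteria. Tfeb and Tfe3 are transcription factors that drive lysosomal genes by binding a palindromic DNA element known as the CLEAR element, whose core is TCACGTGA.

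The CLEAR core is shown here because it is the sequence through which Tfeb, itself one of the genes measured, is known to act on other members. Promoter sequences of RefSeq on GRCm38.p6, from 250 bases before to 50 bases after a transcript start, were given for 32 of the 38 members. The core was in a promoter of 7 of these 32 (21.9%), against 304 of all 27025 genes of the same table (1.12%) and 6 of 82 other lysosome genes (7.32%). It reads the same on both strands. The full CLEAR element, a longer form that contains the core, was in a promoter of 0 of the 32. It was in 0.37% of all genes and 2.44% of the other lysosome genes. With only 32 members, a count of 0 does not show that the full element is rarer among them. The shorter E-box CACGTG, which lies inside the core, was in 13 of the 32 (40.6%, against 8.09% of all genes). The first match of each of the 7 genes follows, 5′ to 3′ on the strand of the gene, with the 8 bases of the core in capitals and 10 bases to either side.
Ctsa: gagcaaactgTCACGTGAtgcagatgct
Ctsd: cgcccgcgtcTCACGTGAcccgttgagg
Mcoln1: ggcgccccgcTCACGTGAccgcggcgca
Gla: aagcgattgaTCACGTGAgcatctacgt
Atp6v0d1: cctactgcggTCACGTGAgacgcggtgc
Atp6v0e: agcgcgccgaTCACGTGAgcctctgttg
Atp6v1a: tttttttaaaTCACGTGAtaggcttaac

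The Ctsa stretch is at chr2:164833750-164833777 on the plus strand, with the core 13 bases before a RefSeq start and a further core 4 bases after that start. Both lie in a UTR exon of GENCODE transcripts of Ctsa. The Ctsd stretch is at chr7:142387909-142387936 (minus strand, core 99 bases before the start) and the Mcoln1 stretch at chr8:3500463-3500490 (plus strand, 46 bases before), each inside a UTR exon of 1 annotated transcript. The Gla stretch at chrX:134601216-134601243 (minus strand) holds the first of 2 cores, 228 and 195 bases before the start, both upstream of the annotated gene. That of Atp6v0d1 at chr8:105566051-105566078 (minus strand, 4 bases before) is also upstream of the gene, that of Atp6v1a at chr16:44139374-44139401 (minus strand, 132 bases before) is in an intron, and that of Atp6v0e at chr17:26676388-26676415 (plus strand, 2 bases after the start) is in a UTR exon. A match describes the letters only, and binding was not measured.

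Several facts about the libraries touch the results. Counts are given as CPM, counts scaled to a common library size after TMM scaling over all 24 libraries. Levels of different genes are compared only in TPM, which divides by gene length and has no TMM scaling. Itgad, the targeted gene, was at 0.0522 to 4.08 CPM in WT libraries and at 12.6 to 96.1 CPM in αD KO libraries. The files sum exonic reads over each gene and give no values per exon, so this value does not tell whether an intact transcript is made. Library 1b had the lowest value of its group for 17 to 38 of the 38 members, and in WT blood naive it was the lowest for 38. In each group library 1b also had the fewest total counts and the most genes with counts. In WT blood naive these were 5753476 counts and 38499 genes, against 29433699 and 17132 in 1a and 22720096 and 27484 in 2. What sets 1b apart was not tested. Each library was placed on a line from the WT lung naive mean (position 0) to the WT lung 12 hours mean (position 1), over 1335 genes called between these groups with the members left out. The libraries outside αD KO lung lay at up to 0.228 when naive and between 0.670 and 1.211 after CLP. In αD KO lung, libraries 1a, 1b and 2 lay at 0.148, 0.0796 and 1.017 when labelled naive, and at 0.0845, 0.857 and 0.185 when labelled 12 hours, so that 3 of these 6 (naive 2, and 1a and 2 of 12 hours) lay outside the range of the other libraries of their time. Neutrophil markers were high in all libraries (summed over 9 genes, 38477 CPM or more), but single genes went both ways after CLP. In WT blood 6 of the 9 were higher and 1 (Csf3r) lower without overlap. In WT lung 5 were higher and 2 (Csf3r and Cxcr2) lower, and in αD KO blood 3 were higher and 3 (Csf3r, Cxcr2 and Ptprc) lower. S100a8, S100a9 and Retnlg were among the higher ones each time. Of 16 monocyte and macrophage markers, the sum was 712 to 1603 CPM in WT blood naive and 728 to 1098 CPM after CLP, with genes going both ways: between the times in WT blood, Csf1r, Ccr2, Adgre1 and Apoe were lower and Ly6c2 and Ear2 higher without overlap. Ly6c2 alone went from 62.6 to 134 CPM up to 477 to 750 CPM. In αD KO blood naive library 2 the sum reached 3190 CPM, with Ccr2 at 286 CPM and Apoe at 1018 CPM.

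At the baseline, Ctsd (cathepsin D, an aspartic protease) was the most abundant member. In WT blood its level was 2293 ± 925 TPM (SD, n = 3). Psap, the precursor of the saposins that help lipid enzymes, followed at 1148 TPM, then Atp6ap1 (an accessory protein of the V-ATPase) at 745 TPM, Atp6v1g1 at 714 TPM and Atp6v0b at 546 TPM. At the low end stood Gaa (acid α-glucosidase) at 10.7 TPM, Npc1 (a cholesterol exporter) at 5.14 TPM and Glb1 (β-galactosidase) at 4.98 TPM. Atp6ap1 and Atp6v1g1, and likewise Npc1 and Glb1, overlapped between libraries, so neighbours in this order were not separated. The spread within groups was wide for Ctsc (median coefficient of variation 88.8%) and Gla (72.6%) and smallest for Atp6v1e1 (20.7%).

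**Figure D1:**
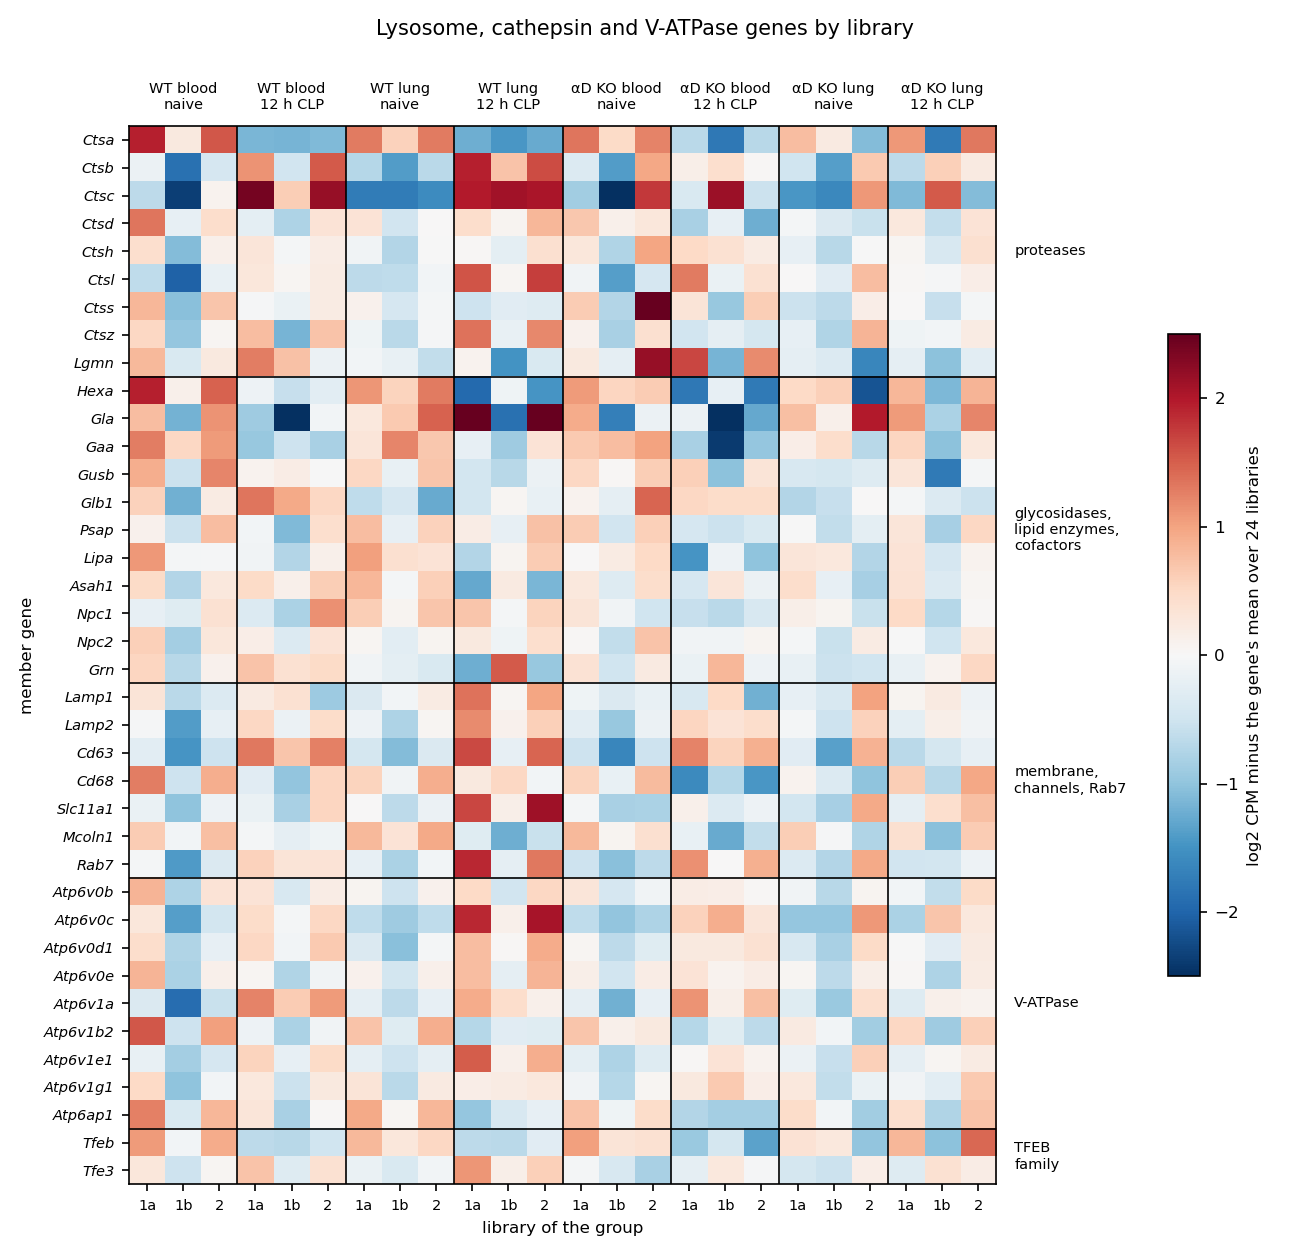
Each row is 1 of the 38 members and each column 1 of the 24 libraries, 3 to a group (1a, 1b and 2). Colour is the log2 CPM minus the mean of the gene over all libraries, from blue (lower) to red (higher), and the lower values of the 1b columns and the mixed columns of αD KO lung are visible across roles.

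The first question is how the members changed in neutrophils at 12 hours post CLP. Called members of the proteases, of the membrane and trafficking proteins and of the V-ATPase went in both directions, while the called enzymes (Gaa and Hexa) and Tfeb were lower. In WT blood 6 of 38 members were called, with Ctsc, Cd63 and Atp6v1a higher and Ctsa, Gaa and Tfeb lower (edgeR's quasi-likelihood test, Benjamini-Hochberg adjusted p under 0.05 and absolute log2 fold change over 1). Of all 14625 genes tested 13.5% were called, so 15.8% of the members is near the background (higher 7.75%, lower 5.75% of all genes). In WT lung 5 members were called, with Ctsb, Ctsc and Atp6v0c higher and Ctsa and Mcoln1 lower (13.2% of the members against 9.02% of all 14859 genes, higher 5.24% and lower 3.78%). In αD KO blood 9 members were called, with Cd63, Rab7 and Atp6v0c higher and Ctsa, Hexa, Gaa, Cd68, Atp6ap1 and Tfeb lower (23.7% against 8.75% of 14156 genes, higher 3.75% and lower 4.99%). The median log2 fold change of the members was 0.13 in WT blood (all genes −0.15), 0.39 in WT lung (0.03) and −0.19 in αD KO blood (−0.14). With 1 library left out the sign of this median turned in WT blood (−0.149 to 0.439) and αD KO blood (−0.42 to 0.20), and in WT lung it went down to 0.0200. All 38 members passed the filter on low counts in each comparison.

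These counts rest on few libraries. In WT blood no member was called when naive library 1a or 2 or CLP library 1a or 2 was left out, and 10 were called without naive library 1b (18.4% of all genes in that fit). In WT lung the count was 0 without naive library 1a, naive library 2 or CLP library 1a, it was 2 without naive 1b (5.03% of all genes) and 1 without CLP library 2 (0.122%), and it was 18 without CLP library 1b (25.3%). In αD KO blood it was 0 without naive library 1a or 2 or CLP library 1a or 2, 3 without naive library 1b (4.67% of all genes) and 11 without CLP library 1b (8.74%). Without the filter on low counts only Ctsc was called in WT blood (1 member, 2.25% of all genes), and Ctsa, Gaa, Cd63, Atp6v1a and Tfeb were not. With the 2 files of sample 1 summed, 4 members were called in αD KO blood (3.84% of all genes), and Hexa, Gaa, Atp6v0c, Atp6ap1 and Tfeb were not. Every called member kept its sign in all of these fits. In WT blood the libraries of the same number deviated together, and with the number as a block 9 members were called (18.4% of all genes), adding Ctsb, Hexa and Gla.

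**Figure D2:**
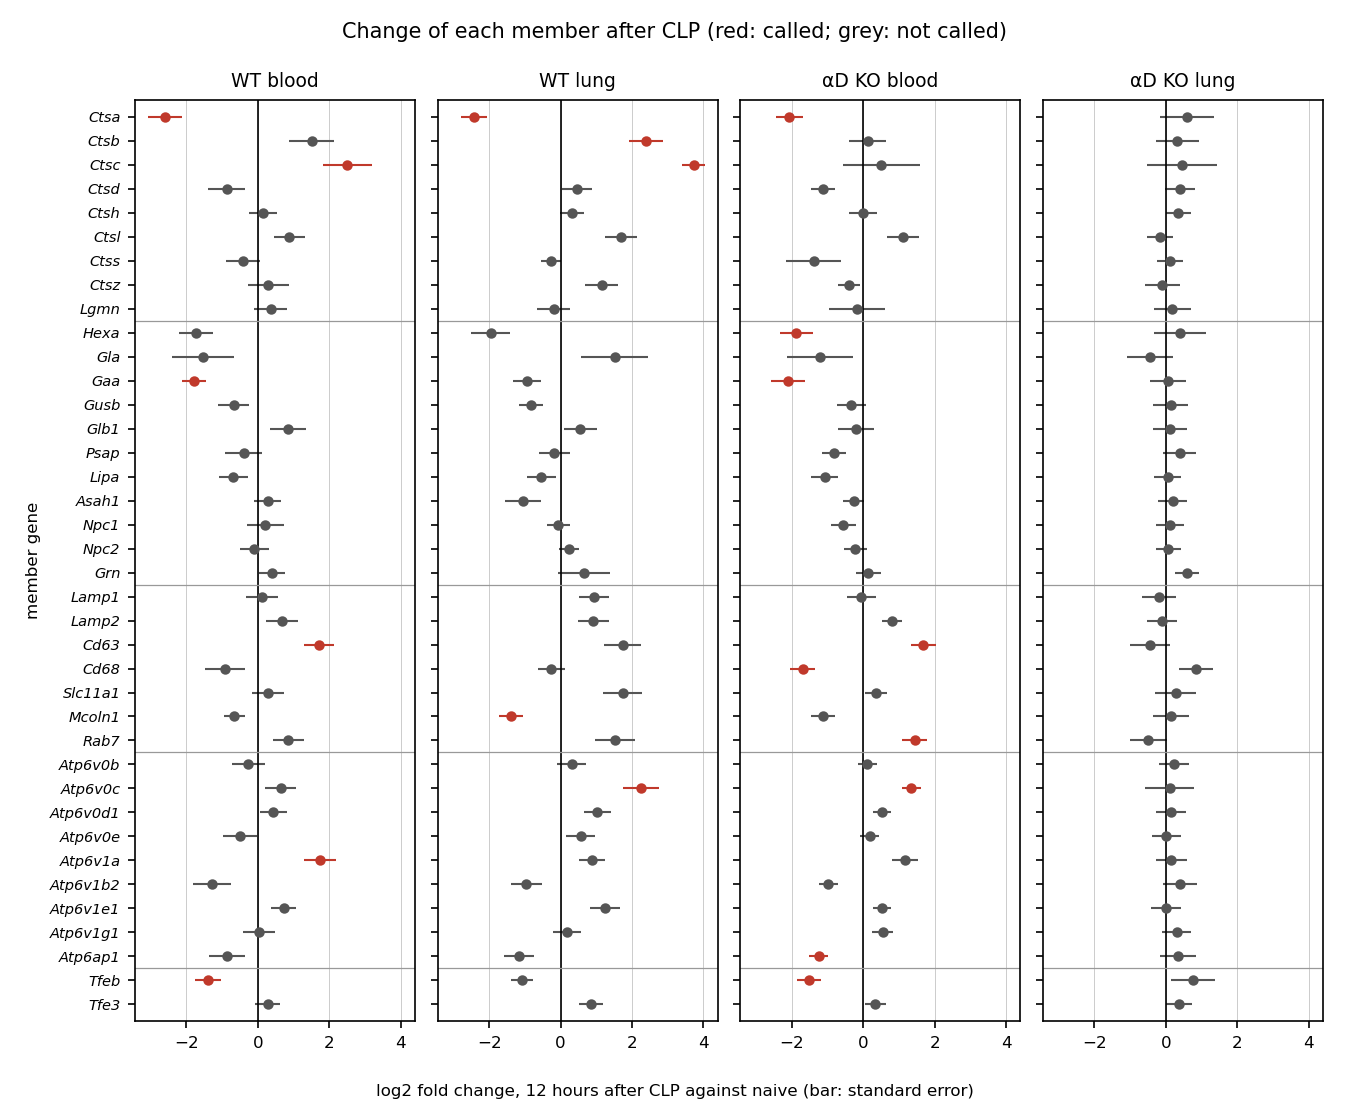
Points are the log2 fold changes of the 38 members between 12 hours after CLP and naive, with bars for the SE, in the 4 combinations of genotype and tissue. Red points were called (6 in WT blood, 5 in WT lung, 9 in αD KO blood) and none was in αD KO lung.

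Among the proteases, Ctsa fell in all 3 comparisons. Ctsa encodes cathepsin A, a carboxypeptidase that also protects 2 other lysosomal enzymes. It had 937, 289 and 711 CPM in libraries 1a, 1b and 2 of WT blood naive and 109, 109 and 114 CPM at 12 hours. The libraries after CLP were nearly equal and lay below all naive libraries (log2 fold change −2.60, standard error (SE) 0.48, adjusted p = 0.0147). In WT lung Ctsa went from 595, 360 and 601 to 104, 88.05 and 100.8 CPM, again without overlap (−2.42, SE 0.37, adjusted p = 0.0119). Blood of αD KO mice went from 611, 338 and 576 to 153, 70.4 and 149.6 CPM (−2.07, SE 0.38, adjusted p = 0.0187). With the other settings and with each library left out, the log2 fold change of Ctsa in WT blood lay between −2.98 and −2.24.

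Ctsc, the dipeptidyl peptidase that activates neutrophil serine proteases, and Ctsb, a cysteine protease, moved the other way. Ctsc had 39.4, 12.2 and 66.3 CPM in WT blood naive and 328, 95.2 and 281 CPM at 12 hours (log2 fold change 2.4996, SE 0.69, adjusted p = 0.0499). In WT lung it had 18.6, 18.6 and 20.9 CPM when naive and 247, 267 and 256 CPM at 12 hours (3.73, SE 0.32, adjusted p = 0.00383), the largest fitted rise of any member in these 3 comparisons. The lung libraries of each time were close together and far from those of the other time. Ctsc overlapped in αD KO blood between the times, with 34.0, 8.89 and 213 CPM when naive and 48.0, 275 and 43.1 CPM at 12 hours (0.51, SE 1.07, adjusted p = 0.795). The naive value of 213 CPM belongs to library 2, which also had the high monocyte markers given above, and their part in it was not tested. Ctsb had 310, 192 and 317 CPM in WT lung naive and 1964, 830 and 1574 CPM at 12 hours (2.39, SE 0.47, adjusted p = 0.0228). In WT blood it went from 459, 140 and 380 to 1099, 362 and 1463 CPM, with overlap (1.51, SE 0.63, adjusted p = 0.158), and in αD KO blood the fitted difference was 0.13 (SE 0.51).

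**Figure D3:**
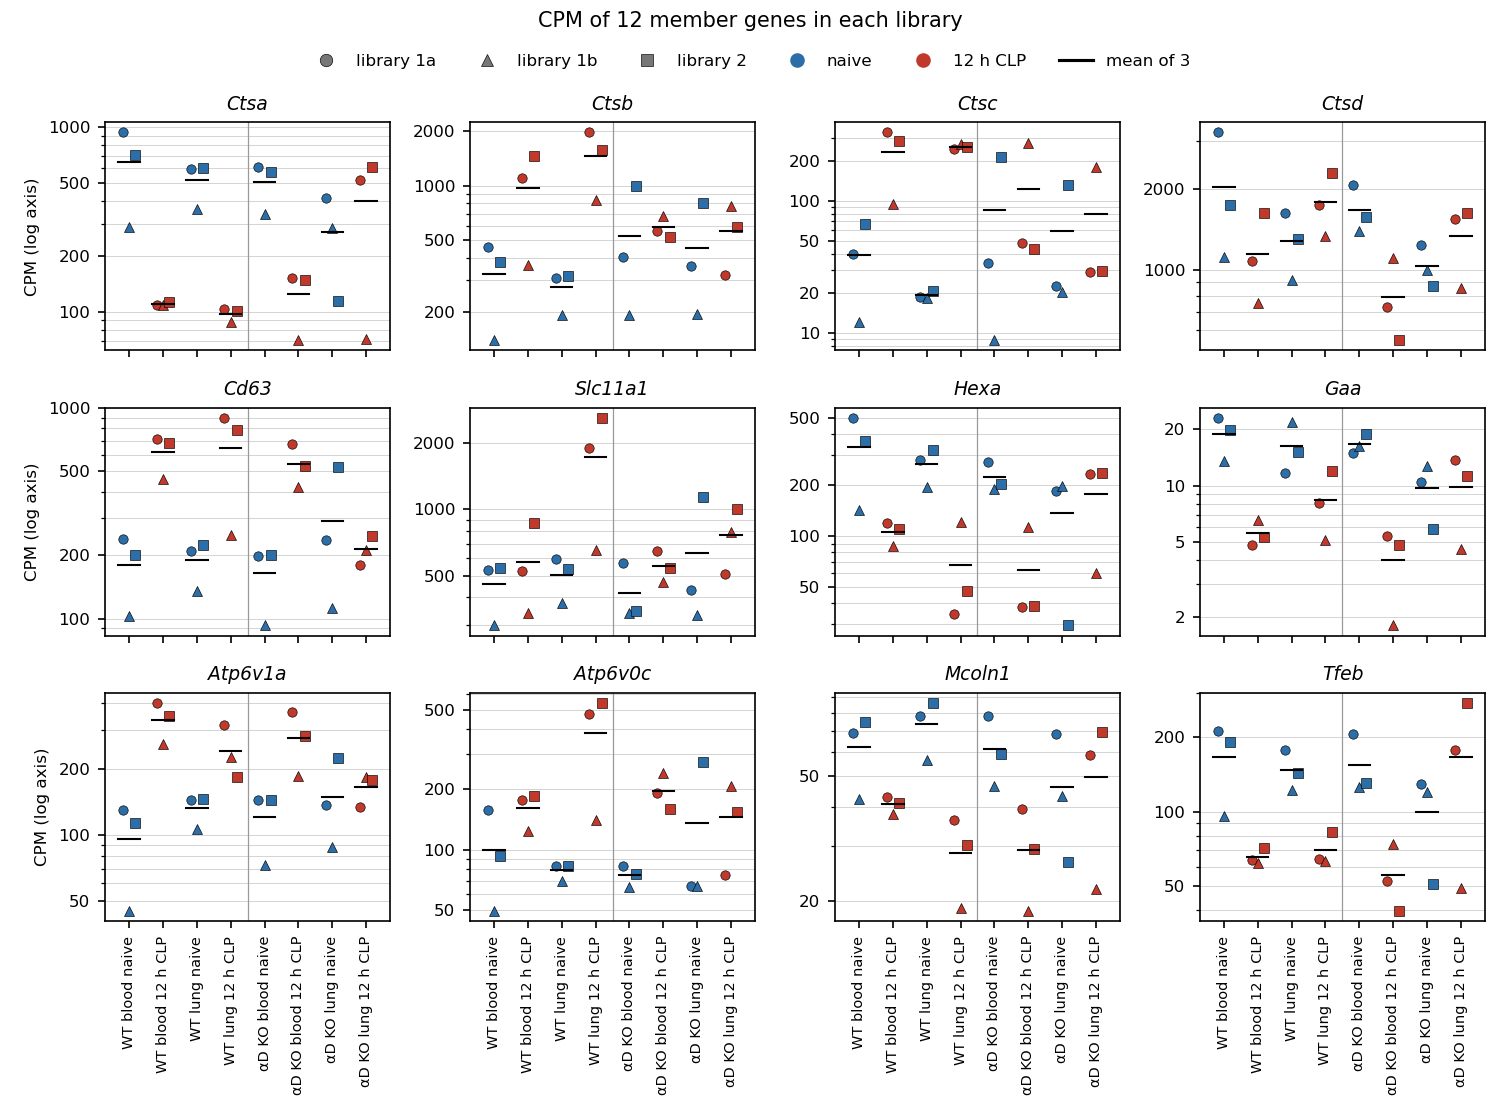
CPM on a log axis of 12 members in each library (circle 1a, triangle 1b, square 2; blue naive, red 12 hours after CLP), with a line at the mean of the 3 libraries. Ctsa, Gaa and Tfeb were lower and Ctsc, Cd63 and Atp6v1a higher after CLP in WT blood, and in αD KO lung the libraries of both times were interleaved.

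Ctsd, the leading protease, was not called in any of the 3 comparisons. It had 3239, 1118 and 1738 CPM in WT blood naive and 1079, 754 and 1621 CPM at 12 hours (log2 fold change −0.88, SE 0.52), and the fitted difference in WT lung was 0.46 (SE 0.42). Its αD KO blood libraries at 12 hours (732, 1107 and 549 CPM) were all below the naive ones (2060, 1399.9 and 1568 CPM), with an adjusted p of 0.0747. Ctsl, a cysteine protease, did not overlap in CPM in WT blood or WT lung and was higher at 12 hours, with an adjusted p of 0.233 and 0.0507. In TPM, without TMM scaling, its libraries overlapped in both. Ctsh (an aminopeptidase), Ctss (which trims the invariant chain in antigen-presenting cells), Ctsz (a carboxypeptidase) and Lgmn (asparagine endopeptidase) overlapped between the times in all 3 comparisons.

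The balance among the 8 cathepsins is shown on the TPM scale, as the share of each in their sum. In WT blood Ctsd made 64.7% ± 5.799 (SD, n = 3) of the sum when naive and 47.1% ± 6.88 at 12 hours. Ctsa went from 10.1% ± 1.54 to 2.52% ± 1.19, while Ctsb went from 5.10% ± 1.06 to 18.1% ± 4.66. In WT lung Ctsa went from 11.7% ± 0.858 to 1.40% ± 0.359 and Ctsb from 6.17% ± 0.464 to 19.5% ± 3.70. None of these libraries overlapped between the times, and in αD KO blood Ctsa (7.45% to 9.28% when naive) and Ctsb (4.75% to 12.8%) did not either. The sum itself was 2199 to 4920 TPM in WT blood naive and 1166 to 2180 TPM at 12 hours, and 2873 to 4249 TPM and 1095 to 1396 TPM in αD KO blood, so a share can be higher with no higher level. With TMM scaling, the summed CPM of the 9 proteases overlapped between the times. It was 1779 to 5315 CPM when naive and 1646 to 4115 CPM at 12 hours in WT blood, and 2200 to 4386 CPM and 1734 to 2550 CPM in αD KO blood. The level of Ctsb in αD KO blood was 221, 136 and 544 TPM when naive and 214, 225 and 190 TPM at 12 hours, with overlap. These shares are read from 3 libraries against 3, where an exact permutation test cannot give a p below 0.1, so no test is given.

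**Figure D4:**
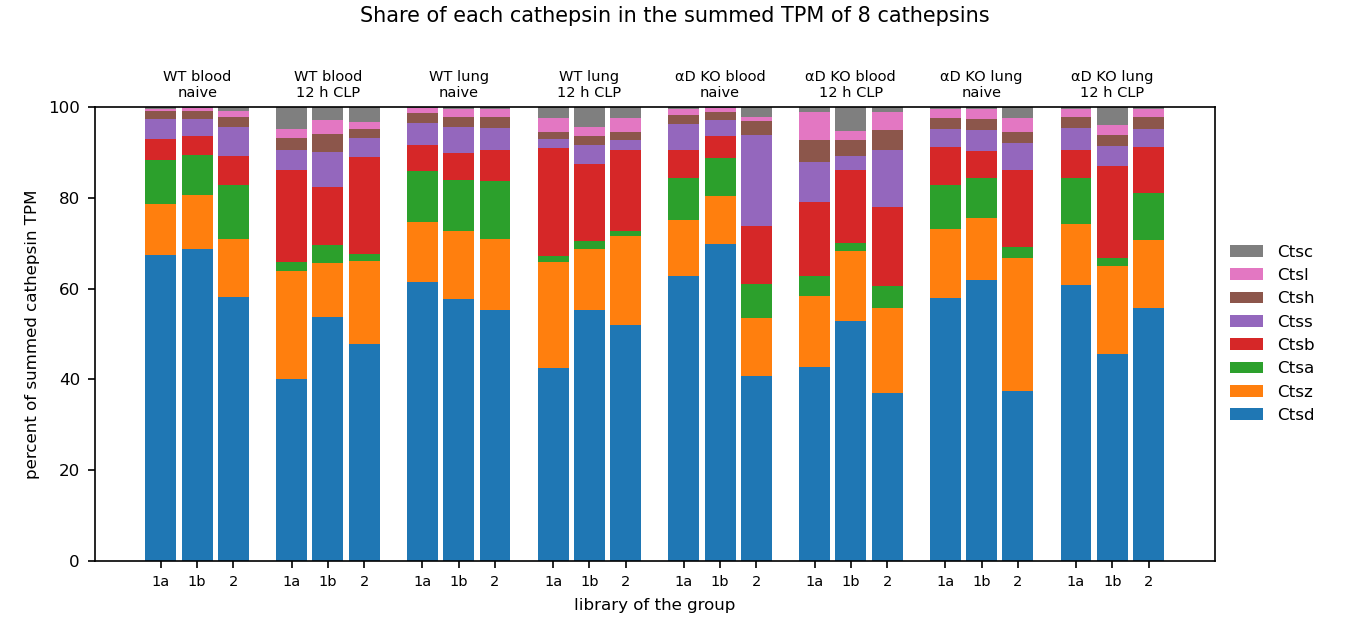
Each bar is 1 library and is divided into the percent of the summed TPM of 8 cathepsins that each gene gives. In WT blood and WT lung the Ctsa share was 8.86% or more in naive libraries and 3.88% or less at 12 hours, and the Ctsb share was 6.70% or less when naive and 12.8% or more at 12 hours.

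Of the 11 glycosidases, lipid enzymes and cofactors, Gaa fell in WT blood and αD KO blood, and Hexa fell in αD KO blood. Hexa encodes the α subunit of β-hexosaminidase, which removes a sugar from GM2 ganglioside. Naive libraries had 273, 190.0 and 203 CPM against 37.7, 113 and 38.3 CPM at 12 hours in αD KO blood (log2 fold change −1.87, SE 0.46, adjusted p = 0.0451). In WT blood (501, 143 and 365 CPM against 119.8, 87.2 and 109 CPM; adjusted p = 0.0507) and WT lung (281, 194 and 324 CPM against 34.1, 121 and 47.1 CPM; adjusted p = 0.0622) its libraries did not overlap either. Gaa, which degrades glycogen in the lysosome, had 23.0, 13.5 and 19.7 CPM in WT blood naive and 4.86, 6.60 and 5.35 CPM at 12 hours (−1.79, SE 0.33, adjusted p = 0.0152). Blood of αD KO mice went from 14.9, 16.2 and 18.8 to 5.38, 1.80 and 4.85 CPM (−2.10, SE 0.48, adjusted p = 0.0361). In WT lung Gaa overlapped between the times (−0.95, SE 0.39).

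Gla, which encodes α-galactosidase A and has 2 CLEAR cores in its promoter, had the widest spread of these 11 genes. It had 51.1, 13.1 and 64.8 CPM in WT blood naive and 16.03, 2.18 and 28.6 CPM at 12 hours. In WT lung it had 35.6, 46.9 and 83.2 CPM when naive and 276, 8.17 and 198 CPM at 12 hours, so that at 12 hours library 1b lay below all naive libraries and the other two above them. Psap had 1066, 681 and 1700.1 CPM in WT blood naive and 945, 458 and 1329 CPM at 12 hours, and its fitted difference was −0.40 in WT blood (SE 0.52), −0.17 in WT lung (SE 0.44) and −0.82 in αD KO blood (SE 0.32). Grn, the precursor of the granulins, had 256, 108 and 190.0 CPM in WT blood naive and 287, 228 and 244 CPM at 12 hours. In WT lung at 12 hours Grn had 511 CPM in library 1b and 75.1 and 91.4 CPM in libraries 1a and 2, against 134 to 165 CPM when naive. Gusb, Glb1, Lipa, Asah1, Npc1 and Npc2 were not called, with fitted log2 fold changes from −1.07 (Lipa, αD KO blood) to 0.85 (Glb1, WT blood).

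Among the membrane and trafficking proteins, Cd63 rose in blood of both genotypes. Cd63 is the tetraspanin of lysosomes and azurophil granules. It had 238, 103 and 199.8 CPM in WT blood naive and 716, 462 and 682 CPM at 12 hours (log2 fold change 1.72, SE 0.42, adjusted p = 0.0337). The αD KO libraries went from 199.2, 92.9 and 201 to 676.5, 421.5 and 528 CPM (1.69, SE 0.35, adjusted p = 0.0281). The libraries in WT lung did not overlap either (209.5, 135 and 223 against 897, 248 and 782 CPM), with a fitted difference that missed the threshold (1.74, SE 0.52, adjusted p = 0.0722). Slc11a1 had 597, 378 and 536 CPM in WT lung naive and 1903, 656 and 2597 CPM at 12 hours, without overlap (1.74, SE 0.54, adjusted p = 0.081). In blood Slc11a1 overlapped between the times in both genotypes.

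Rab7, the GTPase of late endosomes, rose in αD KO blood from 474, 332 and 433 to 1516, 687 and 1270.0 CPM (log2 fold change 1.44, SE 0.35, adjusted p = 0.0429). Cd68, a LAMP-family protein used as a macrophage marker, fell there from 197, 119 and 233 to 44.7, 82.1 and 48.95 CPM (−1.69, SE 0.35, adjusted p = 0.0275). In the same libraries the sum of 16 monocyte and macrophage markers, of which 0 to 2 were at 0 in a library, went from 837 to 3190 CPM down to 618 to 734 CPM. Ly6c2 was higher at 12 hours without overlap, from 55.9 to 347 CPM up to 389 to 520 CPM, while 7 of the 16 were lower without overlap, among them Csf1r (522 to 668 CPM down to 91.02 to 132 CPM) and Apoe (123 to 1018 CPM down to 26.7 to 82.3 CPM), and the other 8 overlapped. The sum of B cell markers went from 363 to 1326 CPM down to 38.9 to 118 CPM, and that of dendritic cell markers from 21.6 to 167 CPM down to 3.78 to 8.56 CPM. T and NK cell markers summed to 18.3 to 329 CPM when naive and 10.6 to 16.7 CPM at 12 hours, and eosinophil and mast cell markers to 42.8 to 57.2 CPM and 2.38 to 4.59 CPM. Their part in the fall of Cd68 was not tested. Mcoln1, the calcium channel of the lysosome, fell in WT lung from 78.1, 56.6 and 85.7 to 36.2, 19.0 and 30.2 CPM (−1.38, SE 0.34, adjusted p = 0.0414). Mcoln1 did not overlap in αD KO blood either (−1.12, SE 0.34, adjusted p = 0.0783). Lamp1 and Lamp2, the main glycoproteins of the lysosomal membrane, were not called: the fitted differences of Lamp1 were 0.12, 0.93 and −0.05 in WT blood, WT lung and αD KO blood, and those of Lamp2 were 0.67, 0.92 and 0.81. Lamp2 libraries did not overlap in WT lung or αD KO blood.

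The V-ATPase genes divided between subunits. Atp6v0c encodes the proteolipid ring through which protons pass. It rose in WT lung from 83.2, 70.1 and 83.1 to 475, 141 and 538 CPM (log2 fold change 2.26, SE 0.50, adjusted p = 0.0311) and in αD KO blood from 82.9, 65.4 and 75.5 to 191, 241 and 159 CPM (1.35, SE 0.27, adjusted p = 0.0234). In WT blood it overlapped, with 158, 49.4 and 93.4 CPM when naive and 178, 124 and 186 CPM at 12 hours. Atp6v1a, the catalytic subunit, rose in WT blood from 129.8, 45.0 and 113 to 398, 259 and 349 CPM (1.74, SE 0.45, adjusted p = 0.0414). Its libraries did not overlap in WT lung (144, 106 and 146 against 318, 226 and 184 CPM) or in αD KO blood (144, 73.0 and 145 against 365, 185 and 282 CPM), with an adjusted p of 0.162 and 0.0775.

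Atp6ap1 moved the opposite way, and fell in αD KO blood from 838, 479.6 and 709 to 308, 287 and 284 CPM (log2 fold change −1.25, SE 0.28, adjusted p = 0.0335). Its fitted difference was −0.88 in WT blood and −1.16 in WT lung, neither of which was called. Atp6v1b2, the regulatory partner of Atp6v1a in the ATP-binding head, had fitted differences of −1.29, −0.95 and −0.97 in WT blood, WT lung and αD KO blood, with none called. So the fitted differences of the 2 head subunits had opposite signs in each of the 3 comparisons. Atp6v0b, Atp6v0d1, Atp6v0e, Atp6v1e1 and Atp6v1g1 were not called, with fitted log2 fold changes from −0.50 (Atp6v0e, WT blood) to 1.25 (Atp6v1e1, WT lung).

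Of the 2 transcription factors, Tfeb fell in blood of both genotypes. It had 210.2, 95.8 and 190.3 CPM in WT blood naive and 63.7, 62.2 and 71.3 CPM at 12 hours (log2 fold change −1.39, SE 0.36, adjusted p = 0.0414). The αD KO libraries went from 205, 125 and 130.4 to 52.5, 73.9 and 39.8 CPM (−1.52, SE 0.33, adjusted p = 0.032). The WT lung libraries did not overlap (177, 122 and 143 against 64.1, 63.0 and 82.5 CPM; −1.09, SE 0.31, adjusted p = 0.0636). Over the other settings and left-out libraries the adjusted p of Tfeb went up to 0.643 in WT blood, where 4 of 6 left-out libraries ended the call, and up to 0.174 in αD KO blood, where 5 of 6 did. Tfe3 had 124, 71.1 and 105 CPM in WT blood naive and 166, 81.1 and 132 CPM at 12 hours, and was called in none of them (0.27, 0.85 and 0.34). Among the 7 members with a CLEAR core, Ctsa and Atp6v1a were called in WT blood, Ctsa and Mcoln1 in WT lung and Ctsa in αD KO blood. Of these calls only that of Atp6v1a was a rise, so the members with the core did not share a direction with each other.

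WT blood, WT lung and αD KO blood share no library, though it is not given if WT blood and WT lung came from the same mice. Genes whose libraries did not overlap between the times in all 3 were counted. There were 5 of 38 such members, with Cd63 and Atp6v1a higher and Ctsa, Hexa and Tfeb lower, in each of the 3. Among 12903 genes tested in all 3 it held for 2048, or 15.9%, and the members' 13.2% is not above it. Per comparison, 9 members did not overlap in WT blood (38% of all genes), 16 in WT lung (32.1%) and 18 in αD KO blood (33.3%).

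Markers of other cell types and of neutrophil maturity also differed between the times, and bulk samples cannot tell fewer cells of a type from less RNA per cell. After CLP the summed level of 8 B cell markers in WT blood went from 345 to 1196 CPM down to 46.3 to 203.5 CPM, and that of 7 dendritic cell markers from 26.0 to 44.2 CPM down to 3.65 to 8.33 CPM. Eosinophil and mast cell markers went there from 53.7 to 64.4 CPM down to 5.17 to 7.69 CPM, and platelet markers from 55.9 to 144 CPM down to 5.05 to 28.9 CPM. In WT lung the B cell sum went from 470 to 749 CPM down to 30.8 to 78.8 CPM and the eosinophil and mast cell sum from 61.3 to 107 CPM down to 2.87 to 25.2 CPM. The dendritic cell sum there was 13.5 to 24.1 CPM when naive and 3.77 to 13.5 CPM at 12 hours, and Csf1r, Adgre1 and Apoe were lower and Ly6c2 and F13a1 higher without overlap. The 9 immature neutrophil and granule genes went from 353 to 7314 CPM up to 81105 to 168696 CPM in WT blood and from 562 to 2051 CPM up to 40016 to 81121 CPM in WT lung, and from 628 to 19720 CPM up to 39069 to 109104 CPM in αD KO blood, carried by Ltf, Ngp, Camp, Chil3 and Lcn2, while Mpo and Elane stayed at 2.22 CPM or less in these libraries. The part of these shifts in the changes of the lysosome genes was not tested.

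The other genes of the pathway were a list of 104 lysosomal and autophagy genes outside the 38. In WT blood 23 of 93 tested were called (13 higher, 10 lower; 13.5% of all genes were), in WT lung 14 of 96 (7 and 7; 9.02% of all genes) and in αD KO blood 15 of 92 (4 and 11; 8.75% of all genes). Of the 24 other hydrolases and cofactors, 11 were called in WT blood, 9 in WT lung and 6 in αD KO blood. Gm2a, the activator protein that presents GM2 ganglioside for degradation, fell in all 3. Its level went from 1349 ± 677 to 94.5 ± 26.7 CPM in WT blood (SD, n = 3; log2 fold change −3.89, adjusted p = 0.00552), from 1284 ± 288 to 239 ± 132 CPM in WT lung (−2.44, adjusted p = 0.0301) and from 1002 ± 175 to 107 ± 11.3 CPM in αD KO blood (−3.28, adjusted p = 0.00131).

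Further called rises among these genes in WT blood were Acp5 (tartrate-resistant acid phosphatase; log2 fold change 3.61) and Galns (a sulfatase; 3.16), and further falls were Tpcn1 (a lysosomal two-pore channel; −3.21) and Mitf (a relative of Tfeb; −2.45). In WT lung Rptor (a subunit of mTORC1; 3.74) and Acp5 (3.18) rose, and Aga (−3.67) and Manba (−2.61), which remove asparagine-linked and mannose sugars, fell. In αD KO blood Wipi1 (an autophagy protein; 2.52), Cd164 (2.10) and Atp6v1h (a V-ATPase subunit; 1.58) rose, and Gga2 (a sorting adaptor; −4.45) and Dpp7 (a peptidase; −2.61) fell. The Gga2 value rests on a naive mean of 6.61 ± 8.34 CPM, a spread larger than the mean. Of the other V-ATPase subunits 1 of 10 tested was called in WT blood, 1 of 12 in WT lung and 2 of 9 in αD KO blood, where 13.5%, 9.02% and 8.75% of all genes were.

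In αD KO lung the comparison of 12 hours with naive called 0 of 38 members and 0% of 17939 genes. No member had an unadjusted p under 0.05 (72 of all genes, or 0.401%, did), and DESeq2 called 0 members and 0% of all genes. The median log2 fold change was 0.15 (all genes −0.05). Ctsa had 415, 283 and 114.5 CPM in the libraries labelled naive and 517, 71.4 and 608 CPM in those labelled 12 hours. Tfeb had 129, 120.3 and 50.9 CPM against 178, 49.2 and 273 CPM, Cd63 had 235.5, 112 and 522.5 CPM against 180.3, 212 and 247 CPM, and Ctsc had 22.8, 20.5 and 133 CPM against 29.1, 180.3 and 29.5 CPM. For Ctsa, Tfeb and Ctsc, naive library 2 and CLP library 1b lay apart from the other two of their group, and for Cd63 naive library 2 did while the libraries of 12 hours lay closer together. They are the same 2 libraries whose position on the WT lung line, computed without the members, was near 1. Grn was the only member whose libraries did not overlap, against 3.53% of all genes (154, 121 and 124 against 154.3, 187 and 250.2 CPM; adjusted p = 1). On that line CLP library 1b lay inside the range of the other libraries of 12 hours. Naive library 2 and CLP libraries 1a and 2 lay outside the range of their time. What separates the libraries of this tissue was not tested.

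**Figure D5:**
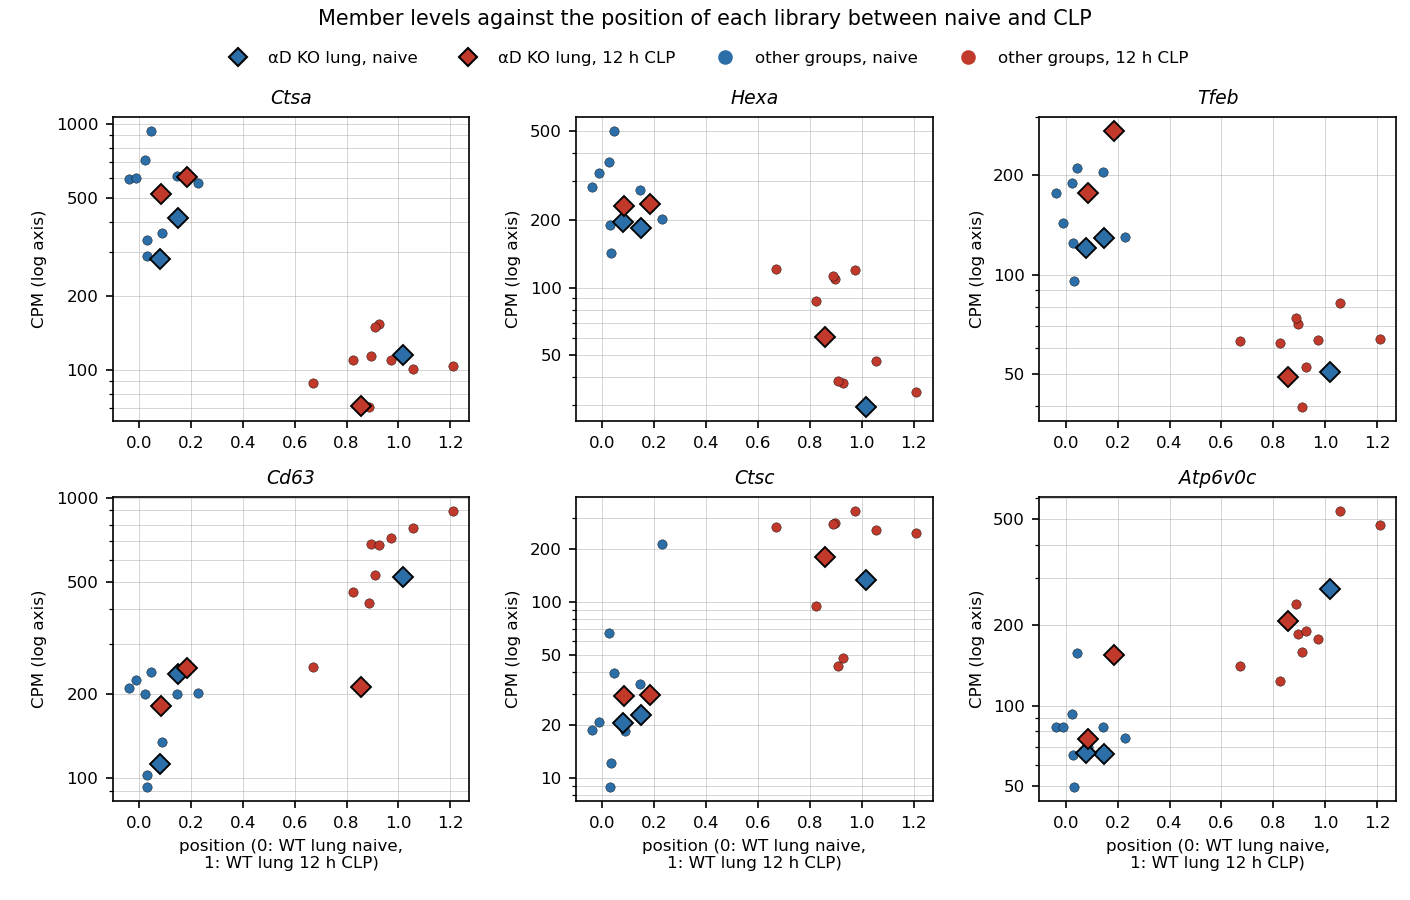
CPM on a log axis of 6 members against the position of each of the 24 libraries, where 0 is the WT lung naive mean and 1 the WT lung 12 hours mean over 1335 other genes. Diamonds are αD KO lung (blue naive, red 12 hours), and 1 naive diamond lies at 1.017 while 2 of the 12 hours diamonds lie below 0.2.

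Whether the genotypes differed at a given time was asked next. In blood, αD KO against WT called 0 of 38 members when naive (0.0115% of 17356 genes) and 0 at 12 hours (0% of 12596 genes). When naive no member had an unadjusted p under 0.05, DESeq2 called 0 members (0.0118% of all genes), and no member's libraries were free of overlap (3.35% of all genes). At 12 hours Cd68 alone had an unadjusted p under 0.05 (log2 fold change −1.004, SE 0.43, adjusted p = 0.962), with WT libraries at 111, 67.8 and 194 CPM against 44.7, 82.1 and 48.95 CPM for αD KO, and DESeq2 called 0 (0.0594% of all genes). Glb1 was lower and Atp6v0e higher in αD KO without overlap, which held for 2 of 38 members (9.76% of all genes). In lung when naive 0 members were called (0% of 18232 genes). Gusb (β-glucuronidase) was the only member with an unadjusted p under 0.05 there, with WT libraries at 57.2, 35.1 and 64.7 CPM against 30.2, 29.4 and 31.9 CPM for αD KO (−0.79, SE 0.29, adjusted p = 0.983), and DESeq2 called 0 (0.0163% of all genes).

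In lung at 12 hours αD KO against WT called 0 of 38 members and 0% of 16764 genes, and DESeq2 called 0 members and 1.12% of all genes. An unadjusted p under 0.05 was found for 6 members (15.8%, against 8.29% of all genes): Ctsa was higher in αD KO (log2 fold change 2.17, SE 0.74, adjusted p = 0.598), and Ctsb (−1.30), Ctsc (−1.64), Ctsl (−1.12), Cd63 (−1.49) and Rab7 (−1.49) were lower. Cd63 libraries of WT had 897, 248 and 782 CPM against 180.3, 212 and 247 CPM for αD KO, so the highest αD KO library lay just under the lowest of WT. Ctsb, Ctsc, Cd63 and Atp6v1a were lower in αD KO without overlap (4 of 38, against 10.9% of all genes). No member was called with any single library left out. With both 1b libraries left out, an alternative chosen after seeing the data, 20 members were called (8 higher, 12 lower; 30.1% of all genes). That alternative keeps the 2 αD KO libraries that lay at 0.0845 and 0.185 and leaves out the one at 0.857.

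The tissues were compared within each genotype and time. Lung against blood called 0 of 38 members in WT naive (0% of 15967 genes), with 0 at an unadjusted p under 0.05 and 0 called by DESeq2 (0.182% of all genes). In αD KO naive it called 0 (0% of 19000 genes), with Lgmn and Gusb at an unadjusted p under 0.05, both lower in lung, and 0 called by DESeq2 (0.496% of all genes). In WT at 12 hours 0 were called (0.0442% of 13590 genes), and 6 members had an unadjusted p under 0.05 (15.8%, against 18.1% of all genes). Of these Gla (log2 fold change 3.32, SE 1.19), Slc11a1 (1.55, SE 0.54), Atp6v0c (1.22) and Ctsl (1.09) were higher in lung and Lgmn (−1.19) and Glb1 (−1.11) lower, with adjusted p between 0.204 and 0.250. The libraries of all the genes higher in lung overlapped between the tissues. Same-numbered libraries deviated together here, and with the number as a block Gla was called (2.98, adjusted p = 0.0469; 0.478% of all genes), as it was by DESeq2 (3.39, adjusted p = 0.0131; 6.59% of all genes). Without WT lung library 1b of 12 hours 9 members were called (23.7%, near the 20.2% of all genes in that fit).

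In αD KO at 12 hours lung against blood called 0 members (0.0548% of 14592 genes), and 7 had an unadjusted p under 0.05 (18.4%, against 22.2% of all genes). Cd68 had 208, 83.8 and 263 CPM in lung and 44.7, 82.1 and 48.95 CPM in blood (log2 fold change 1.64, SE 0.47, adjusted p = 0.119). Cd63 was 180.3, 212 and 247 CPM in lung and 676.5, 421.5 and 528 CPM in blood (−1.36, SE 0.36, adjusted p = 0.105). DESeq2 called these 2 genes (adjusted p = 0.0382 and 0.0266; 6.56% of all genes). Of the 3 lung libraries, 1a and 2 lay at 0.0845 and 0.185 on the WT lung line and 1b at 0.857, while the blood libraries lay at 0.887 to 0.926. The sum of 16 monocyte and macrophage markers was 844 to 1367 CPM in lung and 618 to 734 CPM in blood. Lung epithelium markers summed to 39.1 to 190 CPM in lung and 5.47 to 8.31 CPM in blood. Lung endothelium and stroma markers summed to 39.4 to 98.7 CPM and 1.54 to 5.31 CPM. In WT at 12 hours the epithelium sum was 21.6 to 404 CPM in lung and 2.87 to 7.47 CPM in blood, and the endothelium and stroma sum 64.6 to 95.1 CPM and 2.56 to 10.1 CPM. The part of any of these in the differences was not tested. The others with an unadjusted p under 0.05 were Ctsa, Hexa, Atp6ap1 and Tfeb, higher in lung, and Rab7, lower. Without lung library 1b 5 members were called (13.2%, against 11.2% of all genes), and without blood library 1b 1 was (2.63%, against 2.64%).

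Whether the change after CLP differed between groups was tested by interaction terms. Between tissues in WT 0 members were called (0% of 23497 genes), with Asah1 (acid ceramidase) at an unadjusted p under 0.05 (log2 difference of changes −1.53, SE 0.65, adjusted p = 0.876). The median over all genes was 0.56 there, and 0.18 over the members. Under RLE scaling it was 0.73 over all genes and 0.35 over the members. Between genotypes in blood 0 were called (0% of 19792 genes) and 0 had an unadjusted p under 0.05, so that calls made in 1 genotype and not in the other are not shown to differ. In lung 0 were called (0% of 23211 genes), and 11 had an unadjusted p under 0.05 (28.9%, against 10.5% of all genes). Their adjusted p was 0.410 to 0.473, led by Ctsc (−3.30, SE 1.08) and Ctsa (3.12, SE 0.99). DESeq2 called 0 members in all 3 interactions, against 0.775% of all genes between tissues, 0.00232% between genotypes in blood and 2.31% between genotypes in lung. The lung interaction uses the 6 αD KO lung libraries, of which 3 lay outside the range of their time on the WT lung line, and with libraries 1a and 2 alone it called 11 members (13.2% of all genes).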

How the data were processed

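Per the labels and methods, RNA of sorted neutrophils was amplified as full-length cDNA and made into tagmentation libraries. The authors trimmed reads with Trimmomatic 0.36 and mapped them with STAR 2.5.2b to GRCm38, per the submitters' processing notes, and deposited raw counts of unique exonic reads per gene. Strand of counting is not given in the sources used here, so reads of overlapping or antisense genes cannot be told apart. Amplification without molecular identifiers means that counts carry duplicates. Gene start and end of 32 of 38 members equal those of GENCODE M21, and exons were not compared. Each of 24 files was taken as 1 library: chi-square per degree of freedom between files 1a and 1b was 63.5 or more, beyond sampling noise. This cannot tell separate animals from separate preparations of the same RNA.

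Tests used edgeR 4.0.16 in R 4.3.3 with limma 3.58.1 (TMM, filterByExpr, quasi-likelihood, two-sided, libraries of the groups compared) and were tested on simulated data. Alternatives were RLE, no filter, DESeq2 1.42.0 (all genes, its own filter), sample 1 files summed, each library left out, the library number as a block, adjusted p alone and, added later, libraries 1a and 2 alone. Same-numbered libraries correlated above 0.1 for each number in WT blood after CLP (0.458, 0.589 and 0.118) and 5 other comparisons. Tables used Python 3.11.15. The members, lists and tests were chosen with earlier results of these data known. All called members were named where at most 10, else the 5 largest rises and falls, with Ctsd, Ctsb, Lamp1, Lamp2, Cd63, Psap, Grn, Slc11a1, Atp6v0c, Atp6v1a, Mcoln1, Tfeb and Tfe3 in any case, and of other lysosome genes at most 3 per direction. Some genes of that list are not reported here.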

Additional observations from a re-analysis of the deposited data

How the results depend on the processing

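The 20 calls of a member in a comparison were recomputed under 12 alternatives each. In 138 of these 240 fits the call held, in 102 it was lost with the same sign, and in 0 the sign turned. All 20 held under DESeq2, under the replicate block and with libraries 1a and 2 alone, 19 under RLE, 15 with the files of sample 1 summed and 13 without the filter on low counts. Most losses came from leaving out 1 library, which leaves 2 against 3.

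Counts of called members moved as follows, with the share of all genes called in the same fit in parentheses. In WT blood after CLP the 6 (13.5%) became 1 without the filter (2.25%), 11 with libraries 1a and 2 alone (23.1%) and 0 to 10 with a library left out (up to 18.4%). In WT lung the 5 (9.02%) became 13 with DESeq2 (19.0%), 12 with sample 1 summed (12.3%), 19 with libraries 1a and 2 alone (37.2%) and 0 to 18 with a library left out (up to 25.3%). In αD KO blood the 9 (8.75%) became 4 with sample 1 summed (3.84%), 14 with libraries 1a and 2 alone (10.99%) and 0 to 11 with a library left out (up to 8.74%). With libraries 1a and 2 alone they were 1 in αD KO against WT blood (0.224%) and 20 in αD KO against WT lung (30.1%) at 12 hours, 3 in the tissue interaction (7.41%) and 11 in the lung genotype interaction (13.2%), against 0 in each main test. Lung against blood at 12 hours gave, in WT, 1 without the filter (1.59%), with DESeq2 (6.59%), with sample 1 summed (4.47%) and with the block (0.478%), 10 with libraries 1a and 2 alone (28.2%) and 0 to 9 with a library left out (up to 20.2%). In αD KO it gave 5 without the filter (3.13%), 2 with DESeq2 (6.56%), 7 with sample 1 summed (8.27%), 14 with libraries 1a and 2 alone (34.3%) and 0 to 5 with a library left out (up to 11.2%). With a library left out, the median log2 fold change of the members lay between −0.149 and 0.439 in WT blood, 0.0200 and 0.594 in WT lung, −0.00290 and 0.407 in αD KO lung and −0.42 and 0.20 in αD KO blood after CLP, between −0.0133 and 0.615 in the tissue interaction, and between −0.48 and 0.34 (blood) and −0.24 and 0.26 (lung) in the genotype interactions. Beside the added calls given above for WT blood and for lung against blood in WT, the replicate block changed no other call where the same-numbered libraries deviated together. Library 1b correlated with 1b at 0.264 to 0.749 in all comparisons of 2 groups. In αD KO blood after CLP same-numbered libraries correlated at 0.050 (1a), 0.376 (1b) and 0.269 (2), and the block gave 11 (10.7%). In WT lung these correlations were 0.0707, 0.423 and 0.352, and the block gave 5 (6.01%). The causes were not tested.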
